A study of Homo sapiens and Mus musculus with 56 samples.

Results

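The subject here is a list of 52 DNA replication and S phase genes, followed in glioblastoma lines after treatment with V-4084. They were chosen by name and function, with earlier results of these data known. Counts of members beside shares of all genes therefore describe these data and are not an independent test. The same holds for the other gene lists. All 52 were measured among 18417 human genes and, under the same symbols, among 19938 mouse genes. They were sorted by role into origin licensing (10 genes), helicase activation (6), polymerases and primase (8), clamp, clamp loaders and lagging strand (10), nucleotide supply (5), G1/S regulators (5), chromatin assembly and DNA methylation upkeep (3), and checkpoint, repair and licensing control (5). Before S phase, origins are licensed when ORC, CDC6 and CDT1 load the MCM helicase, which CDC45 and the GINS complex then turn on. Polymerases, the PCNA clamp and a supply of deoxynucleotides follow. In proliferating cells many of these genes are transcribed together around the G1/S boundary by E2F factors, which are held back by the RB family in quiescent cells.

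Expression was measured on 56 Affymetrix gene arrays, 28 human and 28 mouse. V-4084 blocks the MET kinase, which is the receptor of the growth factor HGF. Human arrays were labelled as cells of 5 glioblastoma lines (SF295, U118, U87M2, DBM2, U251M2) cultured for 7 days with V-4084 from a 0.01 M stock in DMSO, or with DMSO alone as vehicle. Its final concentration was not found in the labels. Mouse arrays were labelled as tumours that these lines formed under the flank skin of nude mice, which lack a thymus and hence mature T cells, treated for 7 days with V-4084 at 30 mg per kg or with its carrier. Human groups held 3 arrays with V-4084 and 3 with vehicle per line, except SF295 with 2 and 2. Mouse groups also held 3 and 3, except SF295 (3 with V-4084, 2 with vehicle) and U251M2 (2 with V-4084, 3 with vehicle). The labels give neither the age of the mice nor the allele behind the nude phenotype.

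Values are log2 probe-set intensities. A level is such a value on an array, and a difference is V-4084 minus vehicle on the log2 scale. Probe sets of different genes respond differently, so levels were not compared between genes. A gene was called when its adjusted p from limma was under 0.05, after Benjamini-Hochberg adjustment over all genes of the platform. The labels do not state that arrays of a group came from separate cultures or animals, so p-values describe the spread between arrays. In a bulk sample, fewer cycling cells and less RNA of a gene per cell cannot be told apart.

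Several arrays stood apart or went against their labels. On 3 human V-4084 arrays (SF295 replicate 2, DBM2 replicate 2 and U251M2 replicate 1) the SD of values within the array was 1.90, 1.75 and 1.90, against at least 2.02 on the other V-4084 arrays and 2.03 on vehicle arrays, and results are given with and without these narrow-range arrays. The titles of 3 human V-4084 arrays name DBM2 while other label fields name SF295, and they were placed by title. HGF stood at 5.17, 5.50 and 5.23 on these arrays, against 5.41, 5.39 and 5.31 on DBM2 vehicle arrays and 9.91 to 10.3 on the 4 arrays of SF295. In several groups human arrays varied in muscle genes together with mouse arrays of the same number. In U118 the mean level of muscle markers was 6.68, 7.39 and 6.74 on human V-4084 arrays and 6.67, 10.2 and 6.59 on mouse V-4084 arrays. In DBM2 it was 6.81, 7.58 and 6.54 on human V-4084 arrays and 7.91, 10.7 and 7.04 on mouse V-4084 arrays. No such order was seen among V-4084 arrays of U87M2, with 6.64, 6.59 and 6.49 on human arrays and 6.83, 6.77 and 7.02 on mouse arrays. In U251M2 replicates 1 and 2 had 6.88 and 6.91 on human V-4084 arrays and 8.39 and 8.19 on mouse V-4084 arrays. Vehicle arrays of U87M2 had 6.80, 6.77 and 6.41 on human and 8.03, 8.37 and 7.03 on mouse arrays, lowest in replicate 3 on each platform. Those of DBM2 had 6.49, 6.71 and 7.30 on human and 6.805, 8.21 and 9.81 on mouse arrays, in the same order. Those of U251M2 had 6.78, 6.70 and 6.54 on human and 8.06, 7.59 and 6.83 on mouse arrays, again in the same order. The platforms were therefore not treated as independent, and mouse RNA on human probes and human RNA on mouse probes were not tested. Whether the human arrays hold RNA of cultured cells, as labelled, or of the tumours was not tested either, so their values are described under the label. The glioma check on human vehicle arrays found VIM, an intermediate filament protein, at 11.9 to 12.2 in every line. GFAP, the astrocyte filament, was high at 11.4 in U251M2, against 6.50 to 6.73 in the other lines, and OLIG2, a glial transcription factor, lay at 5.60 to 5.90 in all 5. Without detection values these levels do not show whether a marker is absent.

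On human arrays, averaged over the 5 lines, replication genes were lower with V-4084. All 52 differences were negative, and 22 genes fell while 0 rose, where 8.23% of all genes were called lower. The median difference of the 52 was -0.21, against 0.015 over all genes. Each of the 5 nucleotide supply genes fell, as did 4 of 6 in helicase activation, 5 of 10 in origin licensing, 2 of 5 G1/S regulators, 3 of 10 clamp and lagging strand genes, 2 of 8 polymerase and primase genes, 1 of 5 checkpoint genes and 0 of 3 chromatin genes. Without the narrow-range arrays 21 fell, where 8.27% of all genes were called lower, 48 differences were negative and the median was -0.17. Of the 22 and the 21, 14 were the same genes. Of the lines, DBM2, U118 and U87M2 were each left out in turn, while SF295 and U251M2 were not. Without DBM2 23 of 52 were called, among 1779 of all genes called in either direction. Without U118 0 of 52 were called, among 473 of all genes called in either direction, with 51 differences negative and a median of -0.13. Without U87M2 0 of 52 were called, among 0 of all genes, with 49 negative and a median of -0.18. At an unadjusted p under 0.05 there were 15 members without U118 and 24 without U87M2, all by limma. After quantile normalization 11 fell and after scaling every array to one SD 12 fell, with all 52 differences negative in both.

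**Figure D1:**
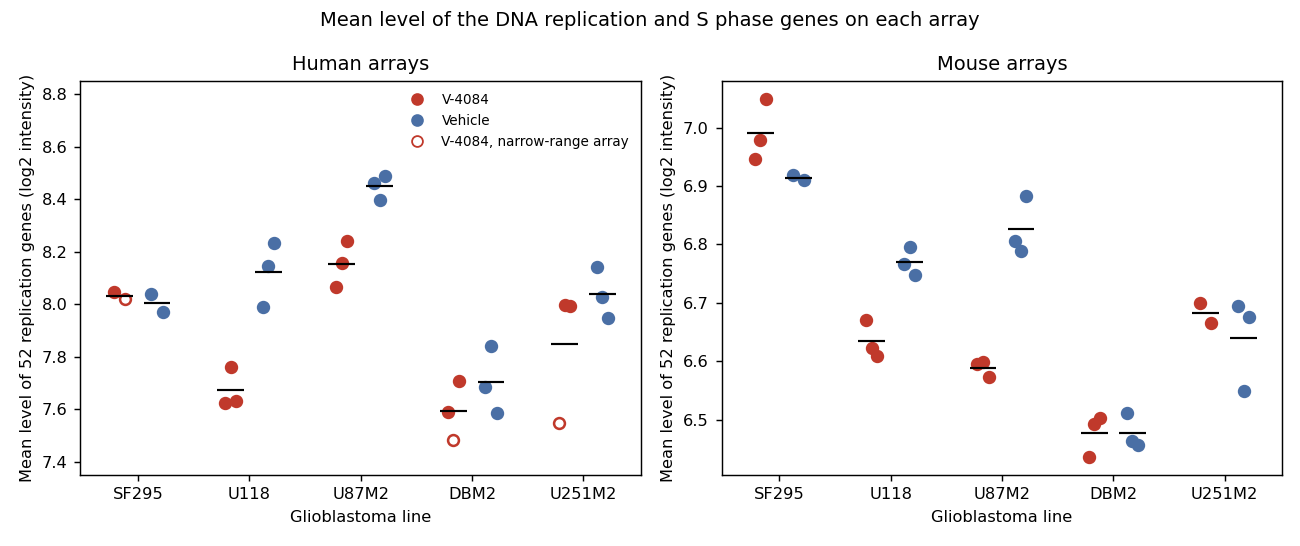
Mean level of the 52 replication genes on each array (log2 intensity, vertical axis) by glioblastoma line (horizontal axis), with V-4084 in red left of vehicle in blue, on human arrays (left panel) and mouse arrays (right panel). Black bars are group means and open circles are narrow-range arrays. In U118 and U87M2 every V-4084 array lies below every vehicle array of its line on both platforms.

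Among origin licensing genes, CDC6, which loads the MCM helicase onto origins, had the smallest p on average and fell by 0.28 (SE 0.07; adjusted p = 0.0111, limma). Of the 6 subunits of the MCM helicase itself 4 fell on average. MCM6 fell by 0.30 (adjusted p = 0.0179), MCM3 by 0.25 (0.0496), MCM5 by 0.24 (0.0416) and MCM7 by 0.22 (0.0305, all limma). MCM4 differed by -0.24 (adjusted p = 0.0522, limma) and MCM2 by -0.12 (adjusted p = 0.244, limma), and neither passed. Without the narrow-range arrays MCM6 fell by 0.23 (adjusted p = 0.0324, limma), while MCM3, MCM5 and MCM7 no longer passed (adjusted p = 0.0707, 0.173 and 0.11, limma). CDT1, the other loading factor, had a difference of -0.03 (adjusted p = 0.752, limma), which turned to 0.01 without those arrays.

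The GINS complex and CDC45 sit with MCM in the active helicase. GINS1 had the smallest p of all members, with a fall of 0.34 (SE 0.07, adjusted p = 0.00334, limma). Its difference was negative in all 5 lines with all arrays, but not in U251M2 without the narrow-range array. GINS4 fell by 0.27 (SE 0.06; adjusted p = 0.00653, limma). GINS3, with a mean level of 6.18 over the human arrays, differed by -0.06 (adjusted p = 0.568, limma). For nucleotide supply, TYMS, which makes thymidylate and had a mean level of 9.91, fell by 0.38 (SE 0.09, adjusted p = 0.0121, limma). With all arrays this was the largest fall of the 52, but not without the narrow-range arrays. In DBM2 TYMS stood at 8.01 on the narrow-range array, against 8.99 and 9.20 on the other V-4084 arrays. GINS1, GINS4, TYMS, RRM1, RRM2 and RFC2 were also called without the narrow-range arrays. RRM1 and RRM2, the large and the small subunit of ribonucleotide reductase, fell by 0.34 (adjusted p = 0.00737, limma) and 0.28 (adjusted p = 0.0173, limma). RFC2, a clamp loader subunit, fell by 0.27 (SE 0.07; adjusted p = 0.0128, limma). PCNA, the clamp, differed by -0.18 (adjusted p = 0.0626, limma) and passed without the narrow-range arrays (-0.19, adjusted p = 0.0445, limma).

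Of the G1/S regulators CCNE2 and E2F8 passed. CCNE2, a cyclin that drives S phase entry, fell by 0.30 (adjusted p = 0.0387, limma) and E2F8, a repressor of the E2F family that is itself induced at G1/S, by 0.27 (adjusted p = 0.0153, limma). CCNE1, the other E-type cyclin, differed by -0.14 (adjusted p = 0.179, limma), E2F1, an activating E2F, by -0.10 (adjusted p = 0.272, limma) and E2F2, another, by -0.01 (adjusted p = 0.91, limma). BRCA1, a repair protein at stalled forks, fell by 0.31 (adjusted p = 0.0166, limma). RPA3, a subunit of the single-strand binding complex, was among the members with the largest p (-0.11, adjusted p = 0.341, limma). CLSPN, a checkpoint adaptor, has a pair of probe sets, with average differences of -0.14 for the set used and -0.335 for the other. Those of UHRF1, which keeps DNA methylated after replication, disagreed in sign at -0.15 (used) and 0.21.

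The promoters of 4 members are shown so that E2F-type sequence can be seen beside the values. CDC6 and GINS2 were called in both U118 and U87M2, GINS1 had the smallest average p, and MCM6 has the most matches of the 43 members with a promoter in the table. Each run holds 250 bases before and 50 after the gene's start, from RefSeq on GRCh38.p14, read on the gene's own strand from 5′ to 3′. Capitals mark matches to TTTCCCGC, TTTGGCGC, TTTCGCGC or TTTGCCGC or to their reverse complements. The windows are chr17:40287629-40287928 on the plus strand for CDC6, chr20:25407423-25407722 on the plus strand for GINS1, chr16:85688905-85689204 on the minus strand for GINS2 and chr2:135876394-135876693 on the minus strand for MCM6.
CDC6: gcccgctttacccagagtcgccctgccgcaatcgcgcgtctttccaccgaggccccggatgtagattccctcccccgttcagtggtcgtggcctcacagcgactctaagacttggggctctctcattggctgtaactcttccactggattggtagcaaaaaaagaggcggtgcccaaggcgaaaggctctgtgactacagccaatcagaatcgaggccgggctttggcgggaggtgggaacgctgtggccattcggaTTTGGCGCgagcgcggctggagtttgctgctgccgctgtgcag
GINS1: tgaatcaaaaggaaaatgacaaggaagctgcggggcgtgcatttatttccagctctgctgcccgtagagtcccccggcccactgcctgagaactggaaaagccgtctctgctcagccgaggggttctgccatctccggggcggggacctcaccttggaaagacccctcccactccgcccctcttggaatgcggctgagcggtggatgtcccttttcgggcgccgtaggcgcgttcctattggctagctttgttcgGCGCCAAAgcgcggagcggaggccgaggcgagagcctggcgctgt
GINS2: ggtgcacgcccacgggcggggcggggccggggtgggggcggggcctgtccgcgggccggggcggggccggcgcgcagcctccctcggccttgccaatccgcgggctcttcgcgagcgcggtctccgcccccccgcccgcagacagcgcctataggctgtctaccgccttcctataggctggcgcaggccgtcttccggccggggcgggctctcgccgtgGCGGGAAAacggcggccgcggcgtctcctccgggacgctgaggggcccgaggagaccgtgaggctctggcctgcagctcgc
MCM6: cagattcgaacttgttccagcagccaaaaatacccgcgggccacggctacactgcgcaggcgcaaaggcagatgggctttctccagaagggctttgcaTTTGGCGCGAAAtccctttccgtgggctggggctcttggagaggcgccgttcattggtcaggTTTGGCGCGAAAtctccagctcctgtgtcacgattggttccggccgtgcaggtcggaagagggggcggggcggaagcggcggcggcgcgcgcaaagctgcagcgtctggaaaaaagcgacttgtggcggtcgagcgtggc
CDC6, GINS1 and GINS2 each have 1 match, and MCM6 has 4, which overlap in pairs so that 2 stretches of capitals show. At least 1 match was found in 23 of 43 members (53.5%), against 908 of 27305 promoters in all (3.33%) and 3 of 21 mitosis genes (14.3%). Of the 22 genes that fell in the average 17 have a promoter in the table and 8 of these a match (47.1%), against 15 of 26 among the other 30 members (57.7%). RRM2, RRM1 and RFC4 have none of these letters in the window. The CHR-type letters TTTGAA and TTCGAA, on either strand, lie in 2 of 43 member promoters (4.65%), in 17 of 21 mitosis gene promoters (81%) and in 4539 of all 27305 (16.6%). CCAAT, on either strand, lies in 53.5% of member promoters, 81% of mitosis gene promoters and 35.7% of all. A match describes letters only. CCNE2, DSCC1, E2F8, GINS4, MCM4, MCM5, POLD3, RPA2 and RPA3 were not matched to the table.

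Of the 5 lines U118 had the lowest median difference on human arrays. The mean level of the 52 genes was 7.62, 7.76 and 7.63 on V-4084 arrays, against 7.99, 8.145 and 8.23 on vehicle arrays, so the arrays did not overlap. All 52 differences were negative, with a median of -0.46 against 0.022 over all genes, and 7 genes fell, where 0.646% of all genes were called lower. For 42 of 52 genes every V-4084 array lay below every vehicle array, which held for 13.5% of all genes. When the narrow-range arrays, none of which is from U118, were left out of the fit, the differences stayed as they were and 32 were called, where 2.65% of all genes were called lower. The 7 calls, like those of all genes in this line, rest on few arrays. Without vehicle replicate 3 or V-4084 replicate 1 of U118 the count was 0, where 0.00543% and 0.0326% of all genes were called lower. Without vehicle replicate 2 or V-4084 replicate 3 it was 2 and 1, where 0.0977% and 0.0217% were.

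RRM2 had levels of 6.14, 6.65 and 6.54 on the V-4084 arrays of U118, against 7.31, 7.38 and 7.39 on its vehicle arrays. CDC6 had levels of 7.59, 7.82 and 7.53 with V-4084, against 8.51, 8.50 and 8.54 with vehicle. E2F8 had 6.89, 7.00 and 6.88 with V-4084, against 7.51, 7.80 and 7.87 with vehicle. In each of these genes all vehicle arrays stood well above all V-4084 arrays. The falls were 0.92 for RRM2 (SE 0.16; adjusted p = 0.00512, limma), 0.87 for CDC6 (SE 0.14; adjusted p = 0.00499, limma) and 0.80 for E2F8 (SE 0.15; adjusted p = 0.00899, limma). RFC3, a clamp loader subunit, fell by 0.75, RRM1 and GINS1 by 0.73 each and GINS2 by 0.62 (adjusted p = 0.0312, 0.0298, 0.0196 and 0.0357, limma). GINS1 stood at 8.06, 8.31 and 8.07 with V-4084, against 8.74, 8.91 and 8.97 with vehicle. TYMS, at 9.32, 9.54 and 9.51 with V-4084 and 10.00, 10.19 and 10.34 with vehicle, differed by -0.72 and did not pass (adjusted p = 0.0974, limma), although its arrays did not overlap either. The smallest differences in U118 were those of E2F2 (-0.03), POLE (-0.035) and RPA2 (-0.05). Muscle markers on these human arrays had a mean level of 6.68, 7.39 and 6.74 with V-4084, against 7.11, 7.49 and 7.21 with vehicle, with 5 of 5 differences negative and 0 called, and their part in the result was not tested.

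U87M2 also held called genes. The mean level of the 52 genes was 8.06, 8.16 and 8.24 on V-4084 arrays, against 8.46, 8.40 and 8.49 on vehicle arrays, again without overlap. The median difference was -0.27 against 0.02 over all genes, 49 of 52 were negative and 9 genes fell, where 9.62% of all genes were called lower. In 32 of 52 genes every V-4084 array lay below every vehicle array, where 21.6% of all genes did so. Without the narrow-range arrays, none of which is from U87M2, 21 fell, where 16.4% of all genes were called lower. Without vehicle replicate 1 or 3 of U87M2 the count of 9 became 4, where 7.73% and 5.72% of all genes were called lower. Without V-4084 replicate 1 or 2 it became 3 and 5, where 6.07% and 6.43% were. After quantile normalization it was 5, with no share of all genes beside it, so a move of all genes cannot be told apart.

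RFC4, a clamp loader subunit, had levels of 9.12, 9.20 and 9.15 on V-4084 arrays of U87M2, against 9.99, 9.80 and 9.82 on vehicle arrays. GINS4 had 6.88, 6.96 and 7.20 with V-4084, against 7.63, 7.38 and 7.73 with vehicle. ORC1, which binds origins, had 7.25, 7.23 and 7.19 with V-4084, against 7.85, 7.68 and 7.80 with vehicle. Arrays of RFC4 and ORC1 were tightly grouped within each treatment, and those of GINS4 were more spread but did not overlap. RFC4 fell by 0.71 (SE 0.16; adjusted p = 0.00226, limma), GINS4 by 0.57 (SE 0.13; adjusted p = 0.00297, limma) and ORC1 by 0.56 (SE 0.14; adjusted p = 0.00577, limma). The other genes that fell were TK1, which salvages thymidine, MCM5, CDC6, BRCA1, RFC2 and GINS2, by 0.47 to 0.61. Only CDC6 and GINS2 were called in both lines, 28.6% of the 7 in U118 and 22.2% of the 9 in U87M2, and 18 genes were called in both without the narrow-range arrays (56.2% of 32 and 85.7% of 21). GINS2 had levels of 8.94, 8.98 and 8.92 with V-4084 in U87M2, against 9.48, 9.42 and 9.35 with vehicle. MET itself fell by 1.06 in U87M2 (adjusted p = 3.13e-05, limma) and differed by -0.61 in U118 (adjusted p = 0.0767, limma), while HGF differed by -0.03 and -0.14. In DBM2 MET had levels of 10.16, 9.45 (narrow-range) and 10.30 with V-4084, against 10.415, 10.54 and 10.335 with vehicle. SF295 had 11.06 and 11.44 (narrow-range), against 10.81 and 10.96. U251M2 had 8.64 (narrow-range), 8.83 and 8.82, against 8.81, 8.715 and 8.795. A link of MET levels to the replication genes was not tested. Fibroblast markers moved with treatment in U87M2: their mean level on human arrays was 10.5, 10.6 and 10.6 with V-4084, against 9.17, 9.47 and 9.03 with vehicle. Of these markers 6 of 6 were called higher, where the share of all genes called higher is not given here. The part of these markers in the result was not tested.

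**Figure D2:**
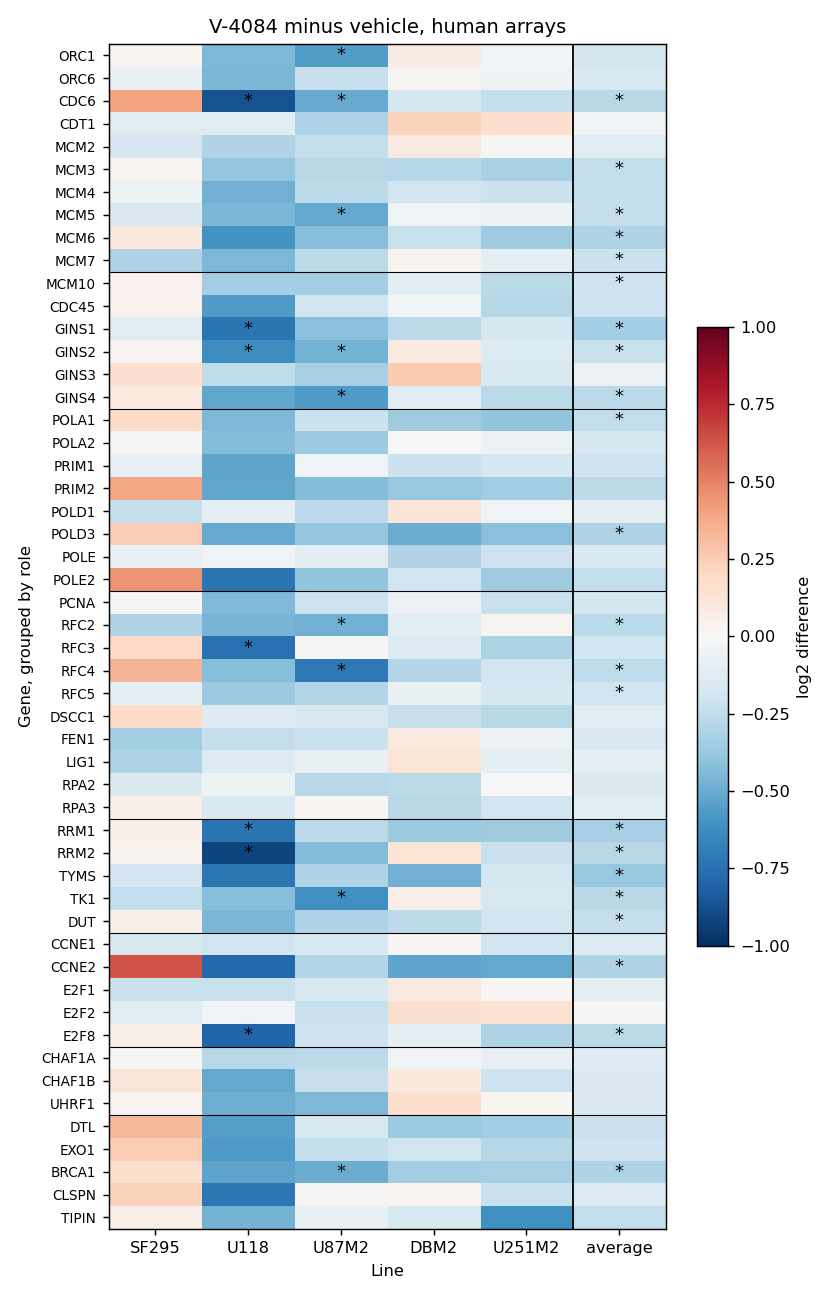
V-4084 minus vehicle on human arrays (colour, log2 difference, blue for lower with V-4084) for each of the 52 genes (rows, grouped by role with black lines between roles) in each line and in the average of the 5 lines (columns). Asterisks mark genes with an adjusted p under 0.05 (limma). The U118 column is blue throughout, U87M2 is mostly blue, and SF295 holds both colours.

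In SF295, DBM2 and U251M2 no replication gene was called in either direction (limma), where 0% of all genes were called lower in each. At an unadjusted p under 0.05 there were 4 members in SF295, where 8.58% of all genes were, 5 in DBM2, where 26.7% were, and 8 in U251M2, where 6.03% were. Median differences were 0.03 in SF295, -0.11 in DBM2 and -0.20 in U251M2, and without the narrow-range arrays they were 0.04, -0.065 and -0.04. In U251M2 the narrow-range array was the lowest: the mean level of the 52 genes was 7.55 there and 7.998 and 7.99 on the other V-4084 arrays, against 8.14, 8.03 and 7.95 with vehicle. The smallest p in each of the 3 lines belonged to CCNE2. In SF295 its levels were 7.66 and, on the narrow-range array, 8.04 with V-4084, against 7.17 and 7.27 with vehicle, a difference of 0.63 (adjusted p = 0.511, limma). In DBM2 its levels were 7.09, 6.98 and 7.71 with V-4084, against 7.79, 7.95 and 7.62 with vehicle, with overlapping arrays and a difference of -0.53 (adjusted p = 0.121, limma). In U251M2 its difference was -0.51 (adjusted p = 0.722, limma). Leaving out the wider V-4084 array of SF295 gave 4 lower and 1 higher call there, where 7.6% of all genes were called lower. That fit keeps only the narrow-range array, whose spread is assumed to be that of the other groups. Leaving out V-4084 replicate 3 of DBM2 gave 6 lower calls, where 14.1% of all genes were called lower.

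Across members, with all arrays, 9 had a negative difference in all 5 human lines, 30 in 4 lines, 11 in 3 and 2 in 2. The 9 were GINS1, MCM4, MCM5, POLA2, POLE, PRIM1, RFC5, RPA2 and TYMS. Without the narrow-range arrays only TYMS of the 9 stayed negative in every line. On the wider V-4084 array of SF295, MCM4, MCM5, POLA2 and POLE stood at 8.89, 9.25, 8.08 and 7.85, each above its SF295 vehicle arrays. Such signs were not counted over all genes. The size of the V-4084 difference varied between lines for 3 members by limma's F test, where 5.53% of all genes did so, and for 15 without the narrow-range arrays, where 10.3% did. CDC6 had a difference of 0.40 in SF295, but of -0.87 in U118 and -0.50 in U87M2, with -0.17 for DBM2 and -0.24 for U251M2 (adjusted p of the difference between lines = 0.00625, limma, and 0.00174 without the narrow-range arrays). Its SF295 levels were 8.74 and 9.07 with V-4084, against 8.44 and 8.57 with vehicle, so the sign in SF295 was opposite to that of the other lines, with a difference that did not pass there (adjusted p = 0.552, limma). RRM2 had a difference of 0.03 in SF295 and 0.14 in DBM2, and of -0.92 in U118, -0.43 in U87M2 and -0.22 in U251M2 (adjusted p = 0.0193, limma). CCNE2 was at 0.63 in SF295 and negative elsewhere, at -0.79 in U118, -0.53 in DBM2, -0.51 in U251M2 and -0.29 in U87M2 (adjusted p = 0.0405, limma). RFC4, GINS2 and E2F8 came next and did not pass with all arrays (adjusted p = 0.0836, 0.0888 and 0.0907, limma). Without vehicle replicate 3 or V-4084 replicate 1 of U118 the count of 3 became 1, and without U118 or U87M2 as a line it was 0. Leaving out V-4084 replicate 1 of SF295 also moved the count, but keeps only the narrow-range array in that group. No share of all genes stands beside these counts, so a move of the members cannot be told from a move of all genes.

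**Figure D3:**
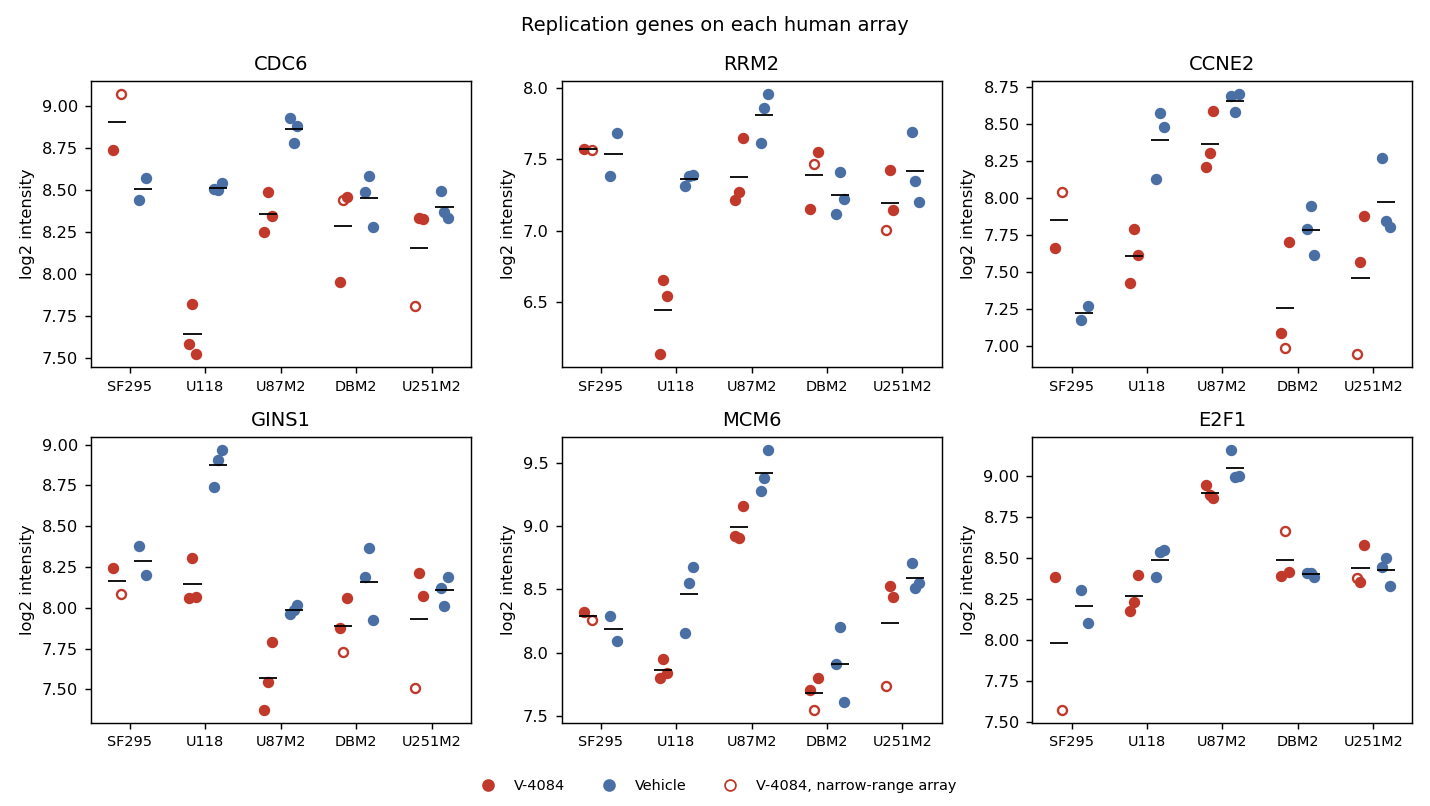
Level of 6 replication genes on each human array (log2 intensity, vertical axes, which differ between panels) by line, with V-4084 in red left of vehicle in blue. Black bars are group means and open circles are narrow-range arrays. CDC6, RRM2 and GINS1 in U118 show V-4084 arrays well below vehicle, CCNE2 in SF295 lies above vehicle, and E2F1 shows little separation.

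The lines also differed without V-4084. On human vehicle arrays 46 of 52 members varied by line in limma's F test, where 58.4% of all genes did so, and 50 did without the narrow-range arrays, where 69.1% did. Levels were highest in U87M2 for 36 members and lowest in DBM2 for 33, against 22.8% and 21.6% of all genes. E2F8 averaged 8.58 in U87M2, the highest line, and 6.66 in SF295, the lowest (adjusted p = 1.4e-11, limma). GINS2 ran from 7.67 in DBM2 to 9.42 in U87M2 and CCNE1 from 6.32 in U118 to 7.94 in U87M2 (adjusted p = 9.47e-10 and 2.28e-09, limma). MCM6, at 9.28, 9.38 and 9.60 in U87M2, lay above every vehicle array of the other lines, the highest of which was 8.71 in U251M2 (adjusted p = 2.83e-07, limma). DUT, which destroys dUTP and so keeps uracil out of DNA, was highest in U251M2 at 8.68 and lowest in SF295 at 7.24 (adjusted p = 8.35e-09, limma). POLE2, a subunit of polymerase epsilon, was highest in U118 at 7.52 and lowest in DBM2 at 5.89 (adjusted p = 3.41e-07, limma).

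Other cell cycle genes are set beside the replication list. On human arrays 24 of 25 mitosis genes fell in the average, where 8.23% of all genes were called lower. Their median difference was -0.51, against -0.21 for the 52 replication genes, and both lists share the same arrays. Counts in this paragraph are with all arrays. In U251M2 the mean level of mitosis genes was 8.08 on the narrow-range array and 8.71 and 8.745 on the other V-4084 arrays. With vehicle it was 8.79, 8.71 and 8.70 there. CENPE, a kinetochore motor, fell by 0.72, HMMR, a spindle protein, by 0.60, MKI67, a marker of cycling cells, by 0.43, and DLGAP5, a spindle assembly factor, by 0.65 (adjusted p = 0.000189, 0.000205, 0.000205 and 0.000226, limma). In SF295 all 25 mitosis differences were negative, with a median of -0.36, while 21 of 52 replication differences were, with a median of 0.03. A difference between the lists was not tested. Of 37 other replication genes outside the list 13 fell, where 8.23% of all genes were called lower, with a median of -0.19. TOP2A, which untangles replicated DNA, fell by 0.51, POLE4, another epsilon subunit, by 0.25, CHEK1, the replication checkpoint kinase, by 0.42, and TIMELESS, a fork protection protein and partner of TIPIN, by 0.32 (adjusted p = 0.00246, 0.00297, 0.00355 and 0.00403, limma). Of 19 genes of RB and E2F control 3 fell, where 8.23% of all genes were called lower, and 1 rose. The share of all genes called higher is not given here. CCNA2, the S phase cyclin, differed by -0.45, RBL1, an RB relative, by -0.28, CDC25A, a phosphatase that activates CDK2, by -0.25, and CCND2, a D-type cyclin, by 0.21 (adjusted p = 0.000794, 0.0309, 0.0356 and 0.0122, limma). CDC25A did not pass without the narrow-range arrays (adjusted p = 0.115, limma).

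**Figure D4:**
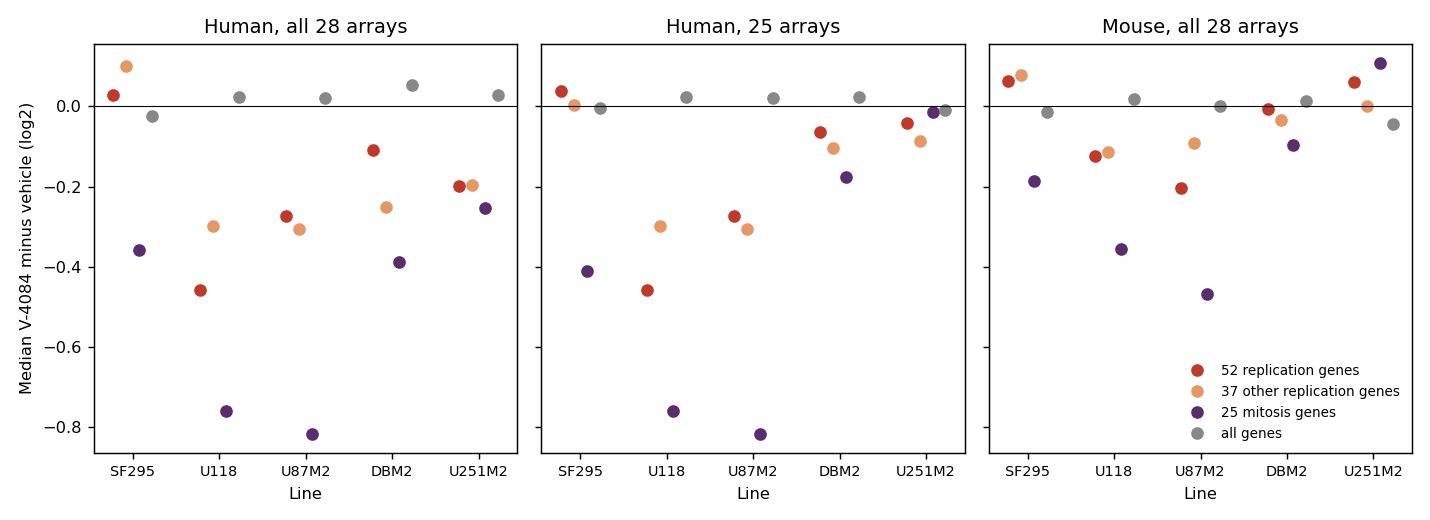
Median V-4084 minus vehicle difference (log2, vertical axis) in each line for the 52 replication genes (red), 37 other replication genes (orange), 25 mitosis genes (purple) and all genes (grey), on all human arrays, on the 25 human arrays left without the narrow-range ones, and on mouse arrays. On human arrays the mitosis genes lie below the replication genes in every line with all arrays, and replication genes are lowest in U118 at -0.46.

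On mouse arrays 11 replication genes were called, all in U87M2 tumours. Averaged over lines, 0 of 52 were called in either direction, where 0.0201% of all genes were called lower, and 10 had an unadjusted p under 0.05, where 9.64% of all genes did. The median difference was -0.05, against -0.006 over all genes. The smallest p belonged to Rrm2 (-0.18, SE 0.05, adjusted p = 0.222, limma), followed by Gins1 (-0.17, adjusted p = 0.285) and Rrm1 (-0.15, adjusted p = 0.403, limma). Next came Rfc5 (-0.10), Mcm7 (-0.115), Brca1 (-0.095), Uhrf1 (-0.12) and Tk1 (-0.13). The largest p belonged to Ccne1, Rfc3, Pola1 and Orc6, whose differences lay between -0.009 and 0.014. Pcna had a mean level of 9.16 over the mouse arrays and Dscc1, a subunit of an alternative clamp loader, of 4.62.

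In U87M2 tumours 11 replication genes fell, where 1.22% of all genes were called lower, and 49 of 52 differences were negative with a median of -0.20, against 0.001 over all genes. In 29 of 52 every V-4084 array lay below every vehicle array, where 8.4% of all genes did so. Rrm2 had levels of 7.21, 7.57 and 7.55 with V-4084, against 7.91, 8.06 and 8.12 with vehicle. Chaf1b, a subunit of the chromatin assembly factor that places histones on new DNA, had 6.39, 6.29 and 6.36 with V-4084, against 6.87, 6.73 and 6.96 with vehicle. Mcm7 had 7.09, 7.13 and 7.02 with V-4084, against 7.65, 7.26 and 7.59 with vehicle. None of these overlapped, and the nearest arrays were those of Mcm7. Rrm2 fell by 0.59 (SE 0.11; adjusted p = 0.00275, limma), Chaf1b by 0.51 (SE 0.10; adjusted p = 0.00533, limma) and Mcm7 by 0.42 (SE 0.10; adjusted p = 0.0154, limma). The others were Mcm2, Mcm3, Mcm5, Pcna, Rfc5, Tyms, Tk1 and Pole, the catalytic subunit of polymerase epsilon, with falls of 0.30 to 0.48. MCM5 and TK1 were called on both platforms in this line, 22.2% of the 9 human and 18.2% of the 11 mouse calls. Without vehicle replicate 1 or 3 of U87M2 the mouse count of 11 became 3, where 0.792% and 0.537% of all genes were called lower. Without V-4084 replicate 1 it became 5, where 0.762% were. After quantile normalization the mouse count was 17, with no share of all genes beside it, so a move of all genes cannot be told apart. Macrophage markers in these tumours had a mean level of 8.92, 8.67 and 8.39 with V-4084, against 8.31, 8.33 and 8.48 with vehicle. Of these 2 of 6 were called higher, where the share of all genes called higher is not given here. Muscle markers had 6.83, 6.77 and 7.02 with V-4084, against 8.03, 8.37 and 7.03 with vehicle. The part of either marker list in the result was not tested.

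**Figure D5:**
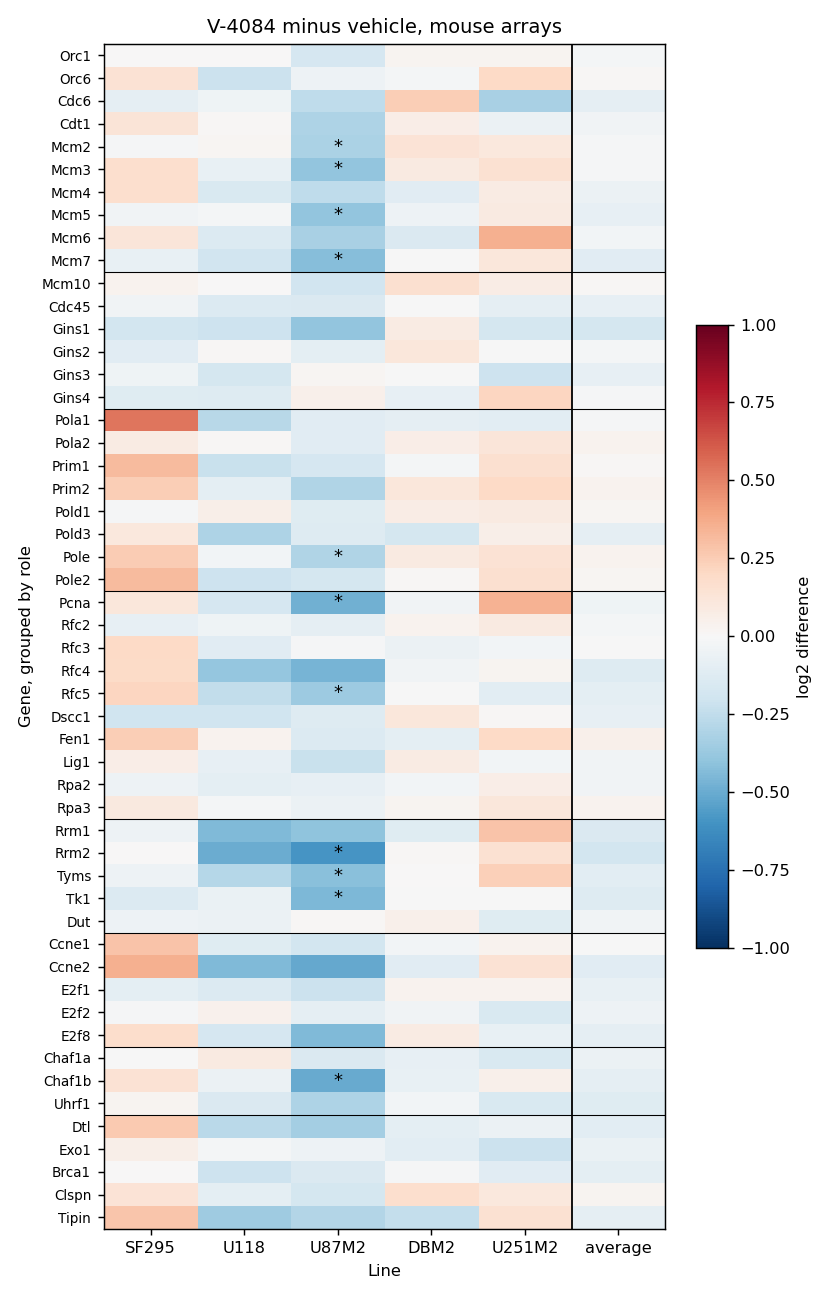
V-4084 minus vehicle on mouse arrays (colour, log2 difference, blue for lower with V-4084) for each of the 52 genes (rows, grouped by role with black lines between roles) in tumours of each line and in the average of the 5 lines (columns). Asterisks mark genes with an adjusted p under 0.05 (limma), and all 11 lie in the U87M2 column.

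In U118 tumours 0 replication genes were called, where 0% of all genes were called lower, while 42 of 52 differences were negative with a median of -0.12, and 11 had an unadjusted p under 0.05, where 6.8% of all genes did. The V-4084 arrays lay below all vehicle arrays for 21 of 52, where 6.61% of all genes did so. Rrm2 had the smallest p there, with levels of 7.17, 7.12 and 6.95 with V-4084, against 7.40, 7.75 and 7.57 with vehicle, a difference of -0.49 without overlap (adjusted p = 0.25, limma). Muscle markers stood at 6.67, 10.2 and 6.59 in these tumours with V-4084, against 9.48, 10.6 and 9.32 with vehicle, and their part in the result was not tested. No member was called in tumours of SF295, where 0% of all genes were called lower, of DBM2, where 0% were, or of U251M2, where 0.015% were, and medians were 0.06, -0.006 and 0.06. The smallest p in these lines belonged to Pola1, the catalytic subunit of polymerase alpha, in SF295 (0.54, adjusted p = 0.542, limma) and to Cdc6 in DBM2 (0.25, adjusted p = 0.9997, limma) and U251M2 (-0.33, adjusted p = 0.272, limma). At an unadjusted p under 0.05 there were 8 members in SF295, where 6.73% of all genes were, 1 in DBM2, where 2.3% were, and 4 in U251M2, where 13.4% were. No member passed the test for differences between lines in the V-4084 effect, where 0.341% of all genes did, and 24 had an unadjusted p under 0.05, where 12.1% of all genes did. Rrm2 came closest at an adjusted p of 0.0588 (limma), then Pole at 0.0628, Pcna at 0.128, Rfc5 at 0.143, Tyms at 0.158 and Mcm3 at 0.165.

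Mouse vehicle tumours differed in replication genes by line. Of 52 members 39 differed by limma's F test, where 54.3% of all genes did so. Levels were highest in SF295 for 27 members and in U87M2 for 19, against 20.9% and 21.1% of all genes, and lowest in DBM2 for 42, against 14.3%. Pcna was at 9.88 and 9.97 in SF295, 9.61, 9.69 and 9.58 in U118, 9.11, 9.14 and 9.28 in U87M2, 8.70, 8.48 and 8.35 in DBM2, and 8.94, 8.52 and 8.96 in U251M2 (adjusted p = 1.67e-08, limma). The 3 upper lines did not overlap each other, while DBM2 and U251M2 did. Mcm6 ran from 6.78 in DBM2 to 7.91 in SF295, and E2f8 from 5.98 in DBM2 to 7.07 in SF295 (adjusted p = 9.29e-07 and 1.37e-05, limma). Pole, Mcm2 and Tyms followed (adjusted p = 1.06e-05, 1.53e-05 and 2.11e-05, limma). Macrophage markers had a mean level of 9.53 and 9.58 in SF295 vehicle tumours, against 7.90 to 8.08 in DBM2, so they too were highest in SF295 and lowest in DBM2, and their part in the order of the lines was not tested.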

How the data were processed

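RNA of each sample (200 ng) was measured on 28 human and 28 mouse arrays. The authors deposited log2 probe-set values, made by RMA and with Partek per the submitters' processing notes, with versions not given in the sources used here. RMA combines probes and normalizes arrays against each other, so a change shared by most genes is not seen. The files hold no detection values, and precision is set by how many arrays each group has. Of 33297 human probe sets 19460 name 1 gene in the platform annotation, 1754 several and 12083 none, and of 35556 mouse probe sets 21789, 1621 and 12146. Each gene was represented by its probe set with the highest mean, which gave 18417 human and 19938 mouse genes. Human and mouse arrays were fitted separately (limma 3.58.1, R 4.3.3) with 10 group means with 18 residual degrees of freedom. Contrasts were the V-4084 effect in each line, its mean over 5 lines, its difference between lines (F test) and the lines with vehicle (F test), with Benjamini-Hochberg adjusted p under 0.05 called, tested on simulated data. The members and lists were chosen with earlier results of these data known. The text names the MCM subunits, CDC6, CDT1, PCNA, RRM2, TYMS, CCNE1, CCNE2 and E2F1 on human arrays. It also names the 8 members of smallest and 4 of largest p in each average, 3 called members of smallest p per line (1 where none was called), 6 for each F test, the members of highest and lowest mean, 4 called genes of the mitosis and other replication lists, and MET and HGF. Other members, and genes of RB and E2F control, were named after their values were seen. Alternatives were quantile normalization, scaling to 1 SD, averaging probe sets, a filter on level, array weights, a mean-variance trend, a replicate block, and leaving out each array, a line or the narrow-range arrays (SD under 2 among V-4084 human arrays). Same-numbered arrays deviated together with correlations of -0.52 to 0.318 on human and -0.349 to 0.297 on mouse arrays, so the numbers were not taken as pairs. Promoters are RefSeq's on GRCh38.p14, the entry listed first for each symbol.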

Additional observations from a re-analysis of the deposited data

Results flagged for a closer look

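For 3 replication genes the V-4084 effect differed between lines on human arrays by limma's F test. CDC6 differed by 0.40 in SF295 and -0.87 in U118 (adjusted p = 0.006252, limma). RRM2 differed by 0.03 in SF295 and -0.92 in U118 (adjusted p = 0.01931, limma). CCNE2 differed by 0.63 in SF295 and -0.79 in U118 (adjusted p = 0.04051, limma). SF295 had 2 arrays per treatment, 1 of them of narrow range. Without the narrow-range arrays the adjusted p was 0.00174 for CDC6, 0.0165 for RRM2 and 0.0453 for CCNE2 (limma).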

How the results depend on the processing

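The array number, the uneven value range and the unknown source of replicates limit these counts. On human arrays the 22 average calls became 11 with quantile normalization and 12 with arrays scaled to one SD. Of all genes 1389 and 1539 were then called in either direction. The count was 0 without U87M2, without U118, and without U87M2 and the narrow-range arrays, where 0, 473 and 34 of all genes were called. The 7 calls in U118 became 46 with array weights and 32 without the narrow-range arrays, where 2.65% of all genes were called lower. The 9 in U87M2 became 5 with quantile normalization, 27 with array weights and 21 without the narrow-range arrays, where 16.4% were. Where no share of all genes stands beside a count in this section, a move of the members cannot be told from a move of all genes. The 3 differences between lines became 5 with scaling, 35 with array weights, 5 without DBM2, 0 without U87M2 or without U118, 15 without the narrow-range arrays, and 0 without U87M2 and those arrays. Leaving out U118, or U87M2 together with the narrow-range arrays, was chosen after seeing the data. The sign of small average differences turned to 0.006 (GINS3), 0.038 (CDT1) and 0.043 (E2F2) without U87M2, to 0.014 (CDT1) and 0.026 (E2F2) without the narrow-range arrays, and to 0.095 (CDT1), 0.088 (E2F2), 0.012 (MCM2) and 0.001 (E2F1) without both. On mouse arrays the 11 calls in U87M2 became 17 with quantile normalization, and the 0 differences between lines became 2 with quantile normalization, 2 with scaling, 1 among genes above the median level and 3 with array weights. Mouse average signs turned with scaling (Pola1 0.000, Rfc3 0.008, Ccne1 0.008), array weights (Pola1 0.003, Rfc3 0.006), and without DBM2 (Pola1 0.010, Rfc3 0.011, Ccne1 0.005), U87M2 (Pola1 0.016, Ccne1 0.043) or U118 (Pola1 0.059, Rfc3 0.024, Ccne1 0.028). Leaving out 1 array gave ranges on human arrays of 11 to 28 for the average, 0 to 14 in U118, 3 to 13 in U87M2, 0 to 5 in SF295, 0 to 6 in DBM2 and 1 to 10 for differences between lines, and on mouse arrays of 3 to 13 in U87M2 and 0 to 1 for differences between lines. The average was moved by over 1.5 times by 11 of the 28 arrays: SF295 vehicle 1 and 2 (11 each), U118 vehicle 2 (13) and 3 (11) and V-4084 1 (12), U87M2 vehicle 3 (14) and V-4084 1 (12) and 2 (13), DBM2 vehicle 2 (13), and U251M2 vehicle 1 (13) and V-4084 1 (12). Leaving out 1 array also moved CDT1 between -0.08 and 0.016, E2F2 between -0.033 and 0.014, Orc6 between -0.019 and 0.036, Pola1 between -0.029 and 0.018, Rfc3 between -0.022 and 0.014 and Ccne1 between -0.032 and 0.022. The number of all genes called in the human average also moved, from 1316 to 4146, when 1 array was left out. The cause of these moves was not tested. With the replicate number as a block the human counts were 18 for the average, 9 in U118, 10 in U87M2 and 3 between lines, and the mouse count in U87M2 was 10. In the block 4 human average calls missed the threshold (MCM3, MCM5, POLD3 and RFC5, at adjusted p = 0.0577, 0.0504, 0.0523 and 0.0518, limma), as did Mcm2 in mouse U87M2 (0.0522) and Rpa2 among the mouse vehicle lines (0.059), and no other member lost a call. Averaging probe sets and the mean-variance trend moved no count by over 1.5 times.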
